A study of Mus musculus with 6 samples.

Results

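Lipoprotein lipase (LPL) splits the triglycerides of chylomicrons and very low density lipoproteins (VLDL), and so brings fatty acids to the fat cell. The enzyme is folded in the endoplasmic reticulum with the help of LMF1, secreted, and carried across the capillary wall by GPIHBP1. Angiopoietin-like proteins such as ANGPTL4 and the small apolipoprotein APOC1 restrain it, and the remnants left after lipolysis are taken up by endocytic receptors, among them VLDLR and LRP1, for which APOE is a ligand. The genes followed here are those of this system: Lpl, Lmf1, Gpihbp1, Angptl1, Angptl2, Angptl4, Vldlr, Lrp1, Apoe and Apoc1. A gene was taken where a transcript cluster of the array carried its symbol alone, which held for 9 of the 10 genes, with 1 cluster each, out of 19047 protein-coding genes tested. Angptl2 was not analysed here.

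All samples were 3T3-L1, mouse fibroblasts that become adipocyte-like under a hormone cocktail. shSTOM-1 cells carried a lentivirus with 1 of the study's shRNAs against stomatin, and control cells carried the pLAS4W lentivirus vector alone. Both had been selected with puromycin at 3 µg/ml, induced with IBMX, dexamethasone and insulin, kept in insulin and fetal bovine serum, and harvested at day 7 of adipogenesis. Each group had 3 arrays, numbered as clones 1 to 3. Whether the clones were grown apart is not stated in the sources used here, and the p-values therefore cover only the spread among these arrays, which may be technical. The vector, 1 shRNA and 1 cell line limit the comparison, and transcript signals do not measure enzyme activity.

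The values are log2 signals, on which a difference of 1 is a doubling, and the median of all values was 5.10. Stom, the target, read 10.57, 10.60 and 10.67 in shSTOM-1 cells, against 13.17, 13.03 and 13.26 in control cells. It was 5.82-fold lower (limma adjusted p = 1.13e-08). The 10 adipocyte markers, Adipoq, Plin1 and Fabp4 among them, were all lower in shSTOM-1 cells, with log2 fold changes of -5.03 to -3.20, and their mean signal was 10.67 to 11.18 in shSTOM-1 cells and 15.00 to 15.09 in control cells. All 6 measured markers of preadipocytes and fibroblasts were higher, with a mean signal of 13.45 to 13.58 in shSTOM-1 cells and 11.35 to 11.50 in control cells. In such bulk samples, fewer fat cells and less RNA of a gene per fat cell cannot be told apart, and this holds for every result below. The part of this marker shift in each result was not tested.

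At a limma adjusted p under 0.05, 6 of the 9 genes were lower in shSTOM-1 cells and 3 were higher, where 44.9% of all coding genes passed (22.7% lower and 22.2% higher). That share includes dim genes, whose group means were both below the median of all values, and none of the 9 genes was dim. With dim genes left out, 36.2% of coding genes were lower and 35.4% higher. The study's stricter thresholds, an adjusted p of 0.001 and 3-fold, were also used. The study applied them with its array software to fewer coding probe sets, so the calls here are not the study's. Past them, 4 of the 9 genes were lower (Lpl, Angptl4, Angptl1 and Apoc1) and 1 was higher (Lrp1). Of all coding genes, 5.2% passed (2.69% lower and 2.51% higher). With dim genes left out, 4.43% were lower and 4.15% higher. At the adjusted p of 0.05 alone, Lpl, Lmf1, Angptl1, Angptl4, Apoe and Apoc1 were lower, and both receptors and Gpihbp1 were higher. Vldlr, at 2.26-fold, did not reach 3-fold. The median log2 fold change of the 9 genes was -0.67, against 0.00 over all coding genes, and the median size without sign was 2.09, against 0.14. In 8 of the 9 genes no shSTOM-1 array overlapped a control array, 2 lying above and 6 below, as in 52% of all coding genes (25.6% above and 26.4% below). The medians and the 52% over all coding genes include 7500 dim genes and were not computed without them. The genes were chosen with earlier results of these arrays known, so these counts are a description.

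**Figure D1:**
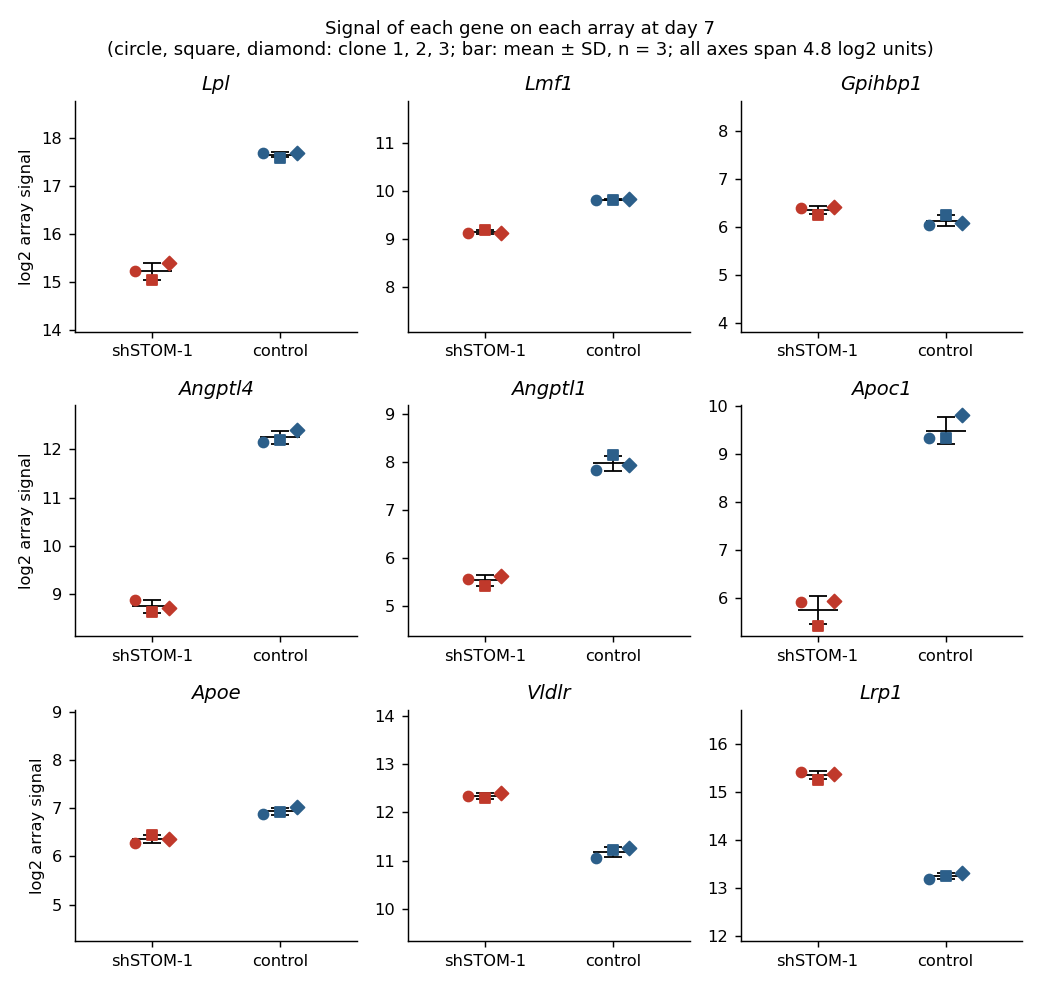
Log2 array signal (vertical axes, each spanning the same width) of the 9 genes on the 3 shSTOM-1 arrays (left, red) and the 3 control arrays (right, blue), with the mean ± SD of each group (n = 3) and the clone number given by the marker shape. The shSTOM-1 arrays lie below the control arrays in Lpl, Lmf1, Angptl4, Angptl1, Apoc1 and Apoe, above them in Vldlr and Lrp1, and touch them in Gpihbp1.

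For 6 of the 10 genes a table of RefSeq promoters (GRCm38.p6) gave the sequence around the start of transcription, and the 250 bases before the start are printed here for both receptors that rose, Lrp1 and Vldlr, and for Angptl1 and Lmf1, which fell. Lpl, Gpihbp1, Angptl4 and Apoc1 had no entry. Capitals mark CCGCCC, the reverse complement of the GC box GGGCGG, and at the 3′ end of Lmf1 the first bases of such a match that runs across the start.
Lrp1, chr10:127621149-127621398, minus strand: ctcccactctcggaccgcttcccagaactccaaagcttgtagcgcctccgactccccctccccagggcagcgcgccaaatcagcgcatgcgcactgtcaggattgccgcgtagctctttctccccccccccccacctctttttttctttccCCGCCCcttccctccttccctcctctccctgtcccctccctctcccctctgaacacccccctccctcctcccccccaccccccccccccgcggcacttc
Vldlr, chr19:27216234-27216483, plus strand: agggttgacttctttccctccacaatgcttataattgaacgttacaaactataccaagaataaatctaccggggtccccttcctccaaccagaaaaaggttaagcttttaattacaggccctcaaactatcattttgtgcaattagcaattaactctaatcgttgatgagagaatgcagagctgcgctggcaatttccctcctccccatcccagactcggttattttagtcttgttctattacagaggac
Angptl1, chr1:156838773-156839022, plus strand: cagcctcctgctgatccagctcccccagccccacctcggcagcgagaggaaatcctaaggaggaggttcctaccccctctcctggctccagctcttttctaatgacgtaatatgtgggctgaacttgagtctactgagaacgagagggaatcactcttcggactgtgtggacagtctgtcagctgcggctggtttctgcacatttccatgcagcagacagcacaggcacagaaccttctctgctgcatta
Lmf1, chr17:25578924-25579173, plus strand: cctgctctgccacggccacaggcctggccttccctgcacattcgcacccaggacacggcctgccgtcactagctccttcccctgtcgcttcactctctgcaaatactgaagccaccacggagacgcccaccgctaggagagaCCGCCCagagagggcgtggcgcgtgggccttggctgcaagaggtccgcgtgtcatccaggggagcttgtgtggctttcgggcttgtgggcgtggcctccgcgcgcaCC

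Windows of 300 bases, which reach 50 bases past the start, were searched on both strands. The nuclear receptor repeat DR1, a pair of AGGTCA copies with 1 base between them, to which PPARγ binds with RXR, was found with up to 2 mismatches in 3.86% of 32851 windows and in none of the 6 genes. A lone AGGTCA was in 16.3% of all windows, the E-box CACGTG in 7.15% and the C/EBP motif TTGCNNCAA in 2.08% (the palindrome TTGCGCAA in 0.183%), and none of these letters was in the windows of the 6 genes either. The GC box was in 35.7% of windows, and in those of Lrp1, Vldlr, Lmf1 and Angptl2. In Vldlr, which has 2 windows, it lay in the other one, 42 to 37 bases before that start, and in Lrp1 it lay 99 to 94 bases before the start. A TATAAA box, present in 13.6% of windows, was found in 1 of the 3 windows of Apoe. The 250 bases before the start had a GC content of 67.2% in Lrp1, 66.8% in Lmf1, 54.8% in Angptl1 and 41.6% in the printed window of Vldlr and 66.4% in its other window, against a median of 52.4%. A match is a run of letters and not a binding site, and a missing match says only that those letters are not in the window.

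Lpl, on chromosome 8, fell in shSTOM-1 cells. Its signal was 15.24, 15.05 and 15.39 in shSTOM-1 cells, against 17.68, 17.59 and 17.69 in control cells, and the nearest arrays of the groups were 2.20 apart. The log2 fold change was -2.43 (SE, the standard error, 0.08, limma adjusted p = 4.06e-08), or 5.38-fold lower. The lipase was still bright in shSTOM-1 cells, 10.13 above the median of all values. Its fall was smaller than that of each of the 10 adipocyte markers, of which the least changed, Adipoq, had a log2 fold change of -3.20, with 95% intervals of -2.62 to -2.24 for Lpl and -3.48 to -2.92 for Adipoq.

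Lmf1, which encodes the chaperone-like protein that LPL needs to leave the endoplasmic reticulum in active form, fell less. It read 9.13, 9.19 and 9.12 in shSTOM-1 cells, against 9.81, 9.82 and 9.83 in control cells. The log2 fold change was -0.67 (SE 0.04, limma adjusted p = 2.37e-06), or 1.59-fold lower. The arrays agreed closely, with SDs of 0.04 in shSTOM-1 cells and 0.01 in control cells. The 95% intervals of the changes of Lmf1 (-0.78 to -0.57) and of Lpl did not overlap.

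Gpihbp1, whose protein holds LPL on the capillary endothelium, had its lower mean, that of control cells, 1.03 above the median of all values. It read 6.40, 6.26 and 6.41 in shSTOM-1 cells, against 6.04, 6.26 and 6.09 in control cells. The lowest shSTOM-1 array thus equalled the highest control array. The difference of 0.23 on the log2 scale (SE 0.07) passed with a limma adjusted p = 0.029. It did not pass in 7 of 14 alternatives, among them leaving out shSTOM-1 clone 1 or 3 or control clone 1 or 3 (limma adjusted p = 0.0867 to 0.0993). An exact two-sided permutation test over the arrays gave p = 0.2. All 6 endothelial markers, Pecam1 and Cdh5 among them, were dim, at 4.11 to 4.87 on every array, below the median of all values (5.10).

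Angptl4, on chromosome 17, encodes a secreted inhibitor of LPL and is known as a target of PPARs. Its signal was 8.88, 8.63 and 8.70 in shSTOM-1 cells, against 12.15, 12.20 and 12.40 in control cells. The groups were 3.27 apart at their nearest arrays. The log2 fold change was -3.51 (SE 0.09, limma adjusted p = 9.21e-09), or 11.4-fold lower. The 95% intervals were -3.71 to -3.32 for Angptl4 and -2.62 to -2.24 for Lpl, and the fall of Angptl4 lay within the range of the adipocyte markers.

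Angptl1, a related secreted glycoprotein gene on chromosome 1, read 5.57, 5.41 and 5.62 in shSTOM-1 cells, against 7.83, 8.13 and 7.93 in control cells. All shSTOM-1 arrays were at least 2.21 below the control arrays. The log2 fold change was -2.43 (SE 0.09, limma adjusted p = 4.95e-08), or 5.39-fold lower, close to that of Lpl. Its mean in shSTOM-1 cells was 0.43 above the median of all values. With no detection calls, this level may be background, and the fold is approximate. Of 3 other angiopoietin-like genes measured, Angptl8, whose protein takes part in the inhibition of LPL, was 1.95-fold lower (4.87 ± 0.07 in shSTOM-1 cells and 5.84 ± 0.12 in control cells, SD, n = 3 each, limma adjusted p = 4.54e-06). Angptl7 was 2.20-fold higher (6.57 ± 0.08 in shSTOM-1 cells and 5.43 ± 0.12 in control cells, SD, n = 3 each, adjusted p = 1.73e-06). The lower group means of Angptl7 (0.33 above the median of all values) and Angptl8 (-0.23 from it) may also be background, so these folds are approximate. Angptl6 changed by -0.13 on the log2 scale and did not pass (limma adjusted p = 0.194).

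Apoc1 and Apoe lie side by side on chromosome 7, with 3584 bases between them, and their measured falls differed in size. Apoc1, whose protein inhibits LPL and the binding of remnants to their receptors, read 5.92, 5.42 and 5.94 in shSTOM-1 cells, against 9.33, 9.33 and 9.80 in control cells. Its log2 fold change was -3.73 (SE 0.17, limma adjusted p = 1.90e-07), or 13.2-fold lower, the largest of the 9 genes, although its 95% interval (-4.11 to -3.35) overlapped that of Angptl4. It also varied most between arrays, with an SD of 0.29 in shSTOM-1 cells and 0.27 in control cells. The mean in shSTOM-1 cells was only 0.66 above the median of all values and, with no detection calls, may be background.

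Apoe, the ligand through which LRP1 and VLDLR take up remnants, had means of 6.36 in shSTOM-1 cells and 6.94 in control cells. It read 6.27, 6.45 and 6.37 in shSTOM-1 cells, against 6.88, 6.92 and 7.02 in control cells. The groups did not overlap, and the log2 difference was -0.58 (SE 0.06, limma adjusted p = 6.04e-05), or 1.49-fold lower. The intervals of Apoe (-0.72 to -0.43) and Apoc1 did not overlap. Apoe was low in both groups, its mean in shSTOM-1 cells being 1.26 above the median of all values. From its control mean, a fall as large as that of Apoc1 would have ended below that median (5.10). The sizes of these falls are therefore not directly comparable. APOE and APOC1 are also made by macrophages. Of 7 macrophage markers 4 had both group means below the median of all values, namely Adgre1, Csf1r, Ptprc and Itgam. Cd68 was lower in shSTOM-1 cells, Lyz2 and Mertk were higher, and the mean signal of the 7 was 5.82 to 5.85 in shSTOM-1 cells and 5.66 to 5.72 in control cells.

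The receptors went the other way. Lrp1, a large endocytic receptor that clears remnants and many other ligands, lies on chromosome 10 and read 15.41, 15.25 and 15.37 in shSTOM-1 cells, against 13.20, 13.26 and 13.31 in control cells. The groups were 1.94 apart at their nearest arrays, and the log2 fold change was 2.09 (SE 0.06, limma adjusted p = 1.52e-08), or 4.25-fold higher. Vldlr, whose protein binds triglyceride-rich particles, lies on chromosome 19 and read 12.34, 12.29 and 12.41 in shSTOM-1 cells, against 11.05, 11.21 and 11.26 in control cells. It was 2.26-fold higher, a log2 difference of 1.17 (SE 0.07, limma adjusted p = 7.67e-07). The 95% intervals were 1.95 to 2.22 for Lrp1 and 1.02 to 1.32 for Vldlr and did not overlap. The rise of Lrp1 was within the range of the preadipocyte and fibroblast markers (1.78 to 2.39), while that of Vldlr was below it. For each of the 8 genes whose groups did not overlap, the exact two-sided permutation test gave p = 0.1, the smallest that 3 arrays against 3 allow.

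**Figure D2:**
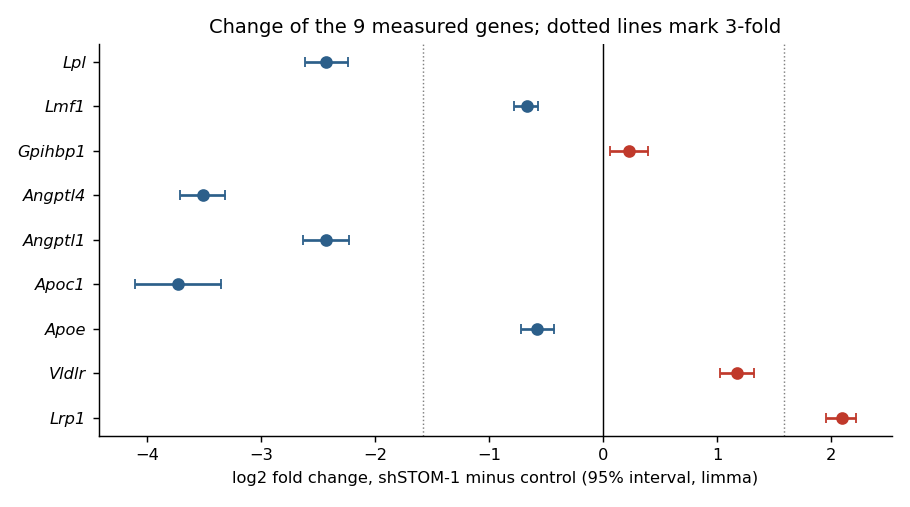
Log2 fold change (horizontal axis, shSTOM-1 minus control) of the 9 genes with 95% intervals from limma (points in red higher and in blue lower in shSTOM-1 cells), with dotted lines at 3-fold. Apoc1 (-3.73), Angptl4 (-3.51), Angptl1 and Lpl (-2.43 each) lie beyond 3-fold downwards and Lrp1 (2.09) beyond it upwards.

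Of 64 other listed genes of lipoprotein handling 56 were measured, and at a limma adjusted p under 0.05, 17 of them rose and 16 fell, leaving 23 that did not pass. This is 58.9% called, against 44.9% of all coding genes (22.2% higher and 22.7% lower). With dim genes left out, 35.4% of coding genes were higher and 36.2% lower. The shares of all coding genes given beside the lists below include dim genes unless stated. At 3-fold and an adjusted p of 0.001, 4 were higher and 4 were lower, against 5.2% of all coding genes in either direction, and the median log2 fold change was -0.01. Of the 56, 21 had both group means below the median of all values. Differences between the lists below were not tested.

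Among receptors of other families, 3 of 6 fell and none rose, which is 50% called, near the 44.9% of all coding genes, dim genes included. The same 3 passed 3-fold and an adjusted p of 0.001, where 2.69% of all coding genes were lower (4.43% with dim genes left out). Cd36, a fatty acid and lipoprotein receptor, read 12.83, 12.33 and 13.26 in shSTOM-1 cells, against 16.70, 16.77 and 16.66 in control cells, 15.0-fold lower (limma adjusted p = 3.60e-07). Scarb1, the HDL receptor SR-BI, was 8.34-fold lower and Olr1, a receptor of oxidised LDL, 5.62-fold lower (adjusted p = 8.37e-09 and 5.11e-07). The other 3, Msr1, Stab1 and Stab2, were dim, with both group means below the median of all values. They had log2 fold changes of 0.05, -0.02 and 0.04 and did not pass. In the LRP family of receptors and its adaptors, 8 of 15 measured genes rose, 2 fell and 5 did not pass, where 22.2% of all coding genes were higher and 22.7% lower. Dab2, a clathrin adaptor that binds the tails of these receptors, read 11.67, 11.85 and 11.76 in shSTOM-1 cells, against 8.77, 8.58 and 8.58 in control cells, 8.67-fold higher (adjusted p = 7.91e-09). Lrp11 was 3.23-fold, Lrp4 1.77-fold and Lrp12 1.51-fold higher (adjusted p = 6.76e-06, 3.39e-06 and 1.09e-05). The control mean of Lrp4 was only 0.20 above the median of all values and may be background, so its fold is approximate. Lrpap1, the chaperone of LRP1, rose by 0.49 on the log2 scale (limma adjusted p = 0.000107). Snx17, a sorting adaptor of LRP1, and Mylip, a ubiquitin ligase that degrades VLDLR, had changes of -0.49 and -0.28 and were the 2 that fell.

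Of 13 genes of LPL maturation, surface binding and cleavage, 4 rose, 6 fell and 3 did not pass, or 76.9% called, where 44.9% of all coding genes were called. The 3 that did not pass had both group means below the median of all values. With such dim genes left out, 35.4% of coding genes were higher and 36.2% lower. Sort1, which encodes the sorting receptor sortilin, a binder of LPL, read 10.57, 10.56 and 10.61 in shSTOM-1 cells, against 14.06, 13.98 and 14.05 in control cells. It was 10.9-fold lower (limma adjusted p = 6.42e-09), while Hspg2, the heparan sulfate proteoglycan perlecan, was 2.59-fold higher and Lmf2, the relative of Lmf1, was 1.93-fold higher (adjusted p = 1.04e-07 and 5.99e-05). The proprotein convertase gene Pcsk7 was 1.43-fold lower (adjusted p = 0.000151). Lmf1 and Lmf2 thus moved in opposite directions. The surface proteoglycan genes Sdc1 and Sdc4 had log2 fold changes of 0.43 and 0.33 and also rose.

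Of 5 other lipases of the LPL gene family, 4 had both group means below the median of all values. The exception, Lipi, was 1.52-fold higher (limma adjusted p = 1.50e-05), and Lipg, endothelial lipase, was 1.13-fold lower (adjusted p = 0.0174), a call lost without shSTOM-1 clone 2 or 3 or control clone 1 or 2 (limma adjusted p = 0.0542 to 0.062). The control mean of Lipi was 0.29 above that median and both means of Lipg were below it, so these folds are approximate as well. Of 14 measured apolipoproteins and particle enzymes, 3 rose, 3 fell and 8 did not pass, or 42.9% called, near the 44.9% of all coding genes, dim genes included. Of the 14, 8 were dim, namely those that did not pass except Apoa4, and Apoc3, which fell. With dim genes left out, 35.4% of coding genes were higher and 36.2% lower. Pltp, the phospholipid transfer protein, read 14.44, 14.61 and 14.41 in shSTOM-1 cells, against 11.37, 11.32 and 11.42 in control cells, 8.67-fold higher (adjusted p = 6.78e-09). Apod, a carrier of small lipids, was 6.35-fold higher, Lcat, which esterifies cholesterol on HDL, 1.34-fold higher, and Lipa, the lysosomal acid lipase, 1.39-fold lower (adjusted p = 1.82e-07, 0.000774 and 0.000216). Apoa1, Apob and Apoh, products of the liver, had means below the median of all values in both groups, as did all 5 hepatocyte markers, among them Apoa2.

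**Figure D3:**
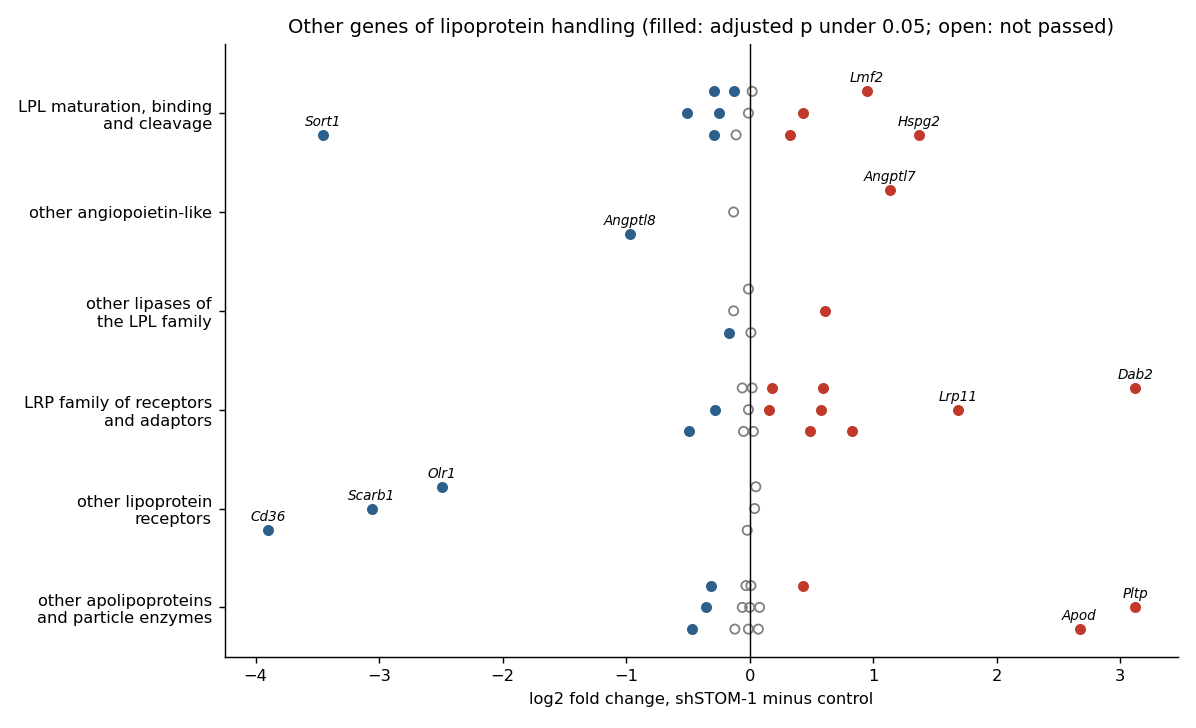
Log2 fold change (horizontal axis, shSTOM-1 minus control) of the 56 other genes of lipoprotein handling, 1 point per gene, by list. Filled points passed an adjusted p of 0.05 (red higher, blue lower in shSTOM-1 cells); Cd36 (-3.90), Sort1 (-3.45), Scarb1 (-3.06) and Olr1 (-2.49) were the lowest, and Dab2 and Pltp (3.12 each) the highest.

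Within the groups, the arrays of shSTOM-1 cells were not alike. Clone 2 had the lowest signal of the 3 in 9 of the 10 adipocyte markers, whose mean was 0.32 below the group mean there, and in 7 of the 9 genes described here, against 6173 of 19047 coding genes. The deviation of clone 2 was -0.34 in Apoc1, -0.18 in Lpl, -0.12 in Angptl1 and -0.11 in Angptl4. Lrp1, Vldlr and Gpihbp1, which were higher in shSTOM-1 cells, were also lowest in clone 2, by 0.09, 0.06 and 0.10. Without this clone, the log2 fold change was -2.34 for Lpl, -3.46 for Angptl4, -3.56 for Apoc1, 2.13 for Lrp1 and 1.20 for Vldlr. In control cells the marker mean deviated by at most 0.06. Apoc1 was 0.31 above the mean of its group in control clone 3.

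**Figure D4:**
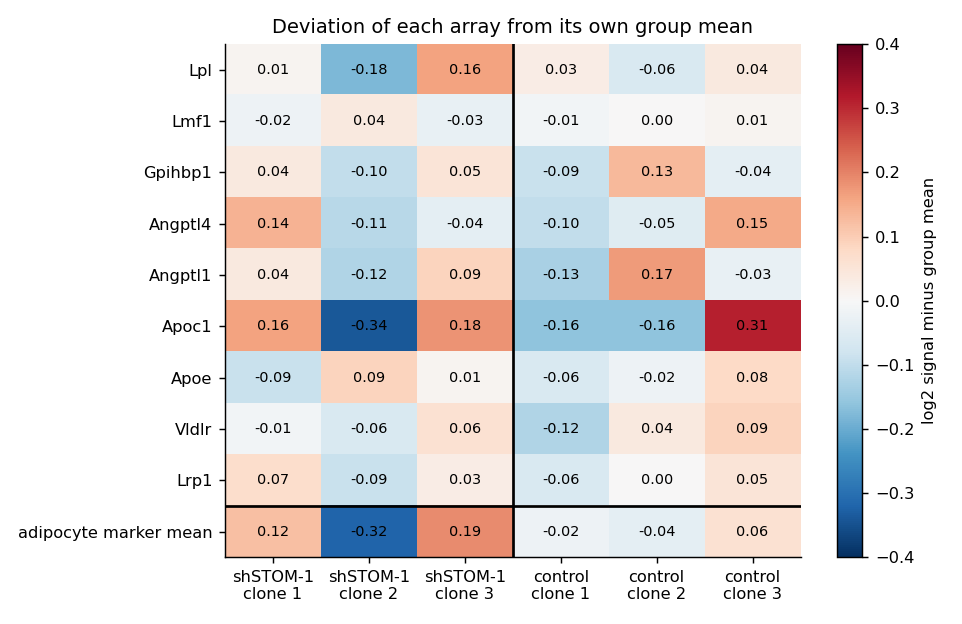
Log2 signal minus the mean of the same group for each gene (rows) on each array (columns, shSTOM-1 left, control right), with the mean of the 10 adipocyte markers as the bottom row. Clone 2 of shSTOM-1 is lowest in Apoc1 (-0.34), Lpl (-0.18) and the marker mean (-0.32), and highest in Apoe (0.09) and Lmf1 (0.04).

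The coding genes whose centred signal was nearest to that of Lpl over the 6 arrays were Nr1h3, with a mean absolute difference of 0.038, Cldn15 (0.042), Gramd1b (0.047), Pank1 (0.057) and Orm2 (0.062), all on the log2 scale. Of the other genes described here, Angptl1 was nearest at 0.102 and Angptl4 next at 0.543. The signal of Angptl1 in shSTOM-1 cells may be background, so its nearness to Lpl is approximate. The 6 arrays form 2 groups, so this likeness mostly reads the size of the difference between them.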

How the data were processed

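Total RNA of 6 samples was measured on Affymetrix MTA-1_0 arrays. The log2 values deposited by the authors, for 65956 transcript clusters, came from their Transcriptome Analysis Console. The sources used here do not give the background correction, the normalization or the genome build. The table holds no detection calls, and the number of arrays limits the precision. Clusters were named through the array annotation (30638 with 1 gene, 2176 with several, left unnamed), with symbols updated through RefSeq genes of GRCm38.p6. The brightest cluster of a gene was used.

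The linear model of limma 3.58.1 (R 4.3.3, lmFit then eBayes) was fitted to 19047 coding genes, with Benjamini-Hochberg adjustment. The code was tested on simulated data. The genes, lists and motifs were chosen with earlier results of these data known. Named were all genes of the set, Stom, up to 4 genes per pathway list with the largest change past an adjusted p of 0.05, and the genes nearest to Lpl. A correlation with Lpl was also planned and is not given, since the arrays form 2 groups. Genes named beside these, such as markers, Angptl6, Lrpap1, Snx17, Mylip, Sdc1, Sdc4, Msr1, Stab1, Stab2 and liver apolipoproteins, were picked after their values were seen. Alternatives were quantile normalization, median centring, no dim genes, the mean of clusters, eBayes with trend and robust settings, the unpaired t-test that the methods name for the study in general (the methods' t-test, unmoderated), clone number as block, all genes with a symbol, each array left out, and 2-fold. Python 3.11.15 and pandas 2.3.3 counted motifs, and matplotlib 3.10.9 drew the plots. A planned comparison of protein sequences was not run.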

Additional observations from a re-analysis of the deposited data

How the results depend on the processing

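The fold changes of Lpl, Lmf1, Angptl1, Angptl4, Vldlr, Lrp1, Apoe and Apoc1 kept their direction and their call in all 14 alternatives, with values of -2.51 to -2.34, -0.70 to -0.66, -2.50 to -2.35, -3.58 to -3.44, 1.11 to 1.22, 2.05 to 2.13, -0.64 to -0.53 and -3.82 to -3.56. Gpihbp1 kept its direction but lost its call with quantile normalization (log2 fold change 0.18, adjusted p = 0.0603 from limma), with the methods' t-test (0.23, adjusted p = 0.108 after Benjamini-Hochberg), with the clone number as a replicate block (0.23, adjusted p = 0.0636 from limma) and without shSTOM-1 clone 1 or 3 or control clone 1 or 3 (0.18 to 0.29 over the 6 arrays left out, and as few as 2 genes then higher in place of 3). The cause was not tested. Deviations of same-numbered arrays correlated at -0.041, 0.027 and -0.126, and those of differently numbered arrays at -0.150 to 0.170. These values cannot show whether same-numbered arrays were paired. The block changed no other call of the 9 genes. At 2-fold in place of 3-fold, 2 of the 9 genes were higher, Vldlr being the added one. The methods' t-test left 2 of the other pathway genes lower at 3-fold and an adjusted p of 0.001, in place of 4. Leaving out dim genes, which leaves fewer genes tested, raised the shares of all genes called to 36.2% lower and 35.4% higher at an adjusted p of 0.05, and to 4.43% lower and 4.15% higher past 3-fold; over all genes with a symbol 1.67% were higher past 3-fold.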
